A study of Mus musculus with 3 samples.

Results

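Open chromatin was compared between UVB-exposed and anagen skin in 1851 mouse melanocyte-lineage nuclei, chosen by their signal at 9 marker genes from 10306 nuclei of those conditions (12348 with telogen). The nuclei were sorted for GFP from the dorsal skin of mice carrying Dct-rtTA and Tre-H2B-GFP, aged 7 weeks by the treatment text and 8 weeks by the sample characteristics. All groups carried both transgenes and drank doxycycline for 5 days, so that a histone-GFP fusion was made in cells with an active Dct promoter. Anagen, the growth phase of the hair cycle, was started in a pool of 8 mice by shaving and depilation with Nair cream. A pool of 24 mice had the dorsal skin irradiated with UVB at 2.2 mJ/cm2 on 3 occasions within 1 week. A pool of 12 mice in telogen, the resting phase, gave side values. The telogen and anagen nuclei shared 1 library and the UVB pool was run as technical replicates without a map from nuclei to runs, so each condition is 1 sample. UVB cannot be told apart from library, nor from the start of anagen by shaving and depilation in the other pool. Higher and lower in UVB are always relative to anagen members. No test between conditions was possible, and all intervals cover counting error only.

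Melanocytes arise from the neural crest and are renewed from stem cells in the bulge and hair germ of the hair follicle. When a new hair cycle starts, their progeny enter the hair bulb, mature and pass melanin to the growing shaft. UVB instead draws melanocyte stem cells toward the epidermis between follicles, where keratinocyte signals through the receptors Mc1r and Kit drive pigment production. The factors Mitf, Sox10 and Pax3 hold lineage identity, and Mitf binds a short E-box variant, the M-box, at many pigment genes.

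A nucleus was taken as a member when at least 3 of the 500-bp features in the gene bodies, plus 2 kb on both sides, of Mlana, Tyrp1, Tyr, Pax3, Kit, Slc45a2, Gpr143, Sox10 and Mitf were open, and when these made up at least 1.5 times their pooled share of 0.120% of open features. The values at these 367 features chose the nuclei and are no finding. Anagen held 686 members among 3753 nuclei (18.3%, exact 95% interval 17.1% to 19.6%) and UVB held 1165 among 6553 (17.8%, 16.9% to 18.7%). Telogen held 76 among 2042. Exactly 3 marker features were open in 90 anagen and 316 UVB members, and 131 anagen and 427 UVB nuclei that passed the share had only 2 and stayed outside. Levels are given in EPM, the number of open entries per 1000000 within a group of nuclei, where an open entry is 1 feature open in 1 nucleus. The marker windows together held 3423 EPM in anagen members and 3455 EPM in UVB members, against 451 and 573 in the other nuclei. The rule fixes this contrast, so these windows are no check of the label.

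Members were deeper in anagen, with a median of 2256.5 open features per nucleus against 1326 in UVB, while the other nuclei had 776 and 868. Barcodes carry a tag number that the labels do not explain. Tag numbers with at least 30 members are used below to show spread (5 in anagen, 10 in UVB), and they are not replicates. Member share ranged over them from 8.01% to 45.9% in anagen and from 8.18% to 40.5% in UVB. Anagen tag number 5 alone gave 322 of the 686 members, with a median of 2903.5 open features. Among barcodes, 217 occurred in both conditions, 12 of them as members in both. Their 2 copies shared a median of 3.59% of open features, and the highest pair shared 29.0%. Summed markers of other cells in anagen and UVB members were 179 and 291 EPM for keratinocytes (12 genes) and 571 and 891 for Schwann cells and glia (10 genes). They were 132 and 145 for fibroblasts (10), 106 and 87.3 for endothelium (10), 131 and 104 for myeloid and Langerhans cells (10, with Cd207 at 0), and 189 and 261 for pericytes and smooth muscle (8). T cell markers (6) stood at 25.5 and 31.6, skeletal muscle markers (7, with Acta1 and Myh1 at 0) at 77.8 and 55.7, and adipocyte markers (6) at 153 and 198. The part of such nuclei in the results below was not tested.

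Anagen members had more of their open chromatin inside genes, and UVB members had more at gene ends and far from genes. Features inside genes, more than 1 kb from either end, took 44.4% of 2276170 open entries in anagen and 33.2% of 1866108 in UVB. Their share ran from 38.2% to 45.4% over anagen tag numbers and from 32.2% to 35.8% over UVB tag numbers, without overlap. Features within 1 kb of a gene end, called gene-near here, took 35.2% in anagen (33.9% to 41.7% over tag numbers) and 42.7% in UVB (40.2% to 44.5%), and these ranges overlapped. Distal features took 20.4% (18.6% to 20.8%) and 24.1% (22.9% to 25.7%), without overlap. With each nucleus thinned to 500 open features, the share inside genes was still 42.7% in 678 anagen members against 32.6% in 1144 UVB members.

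The other nuclei of the same conditions differed much less in this respect. Inside genes they held 35.1% in anagen and 33.7% in UVB, and gene-near features took 38.0% and 38.6%. The 76 telogen members, which share a library with the anagen ones, had 32.3% inside genes, 43.5% gene-near and 24.2% distal, close to the UVB split. Telogen members had a median of 1011.5 open features, nearer the UVB depth than the anagen depth. They held only 90023 open entries, so that 1 entry there is 11.1 EPM.

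**Figure D1:**
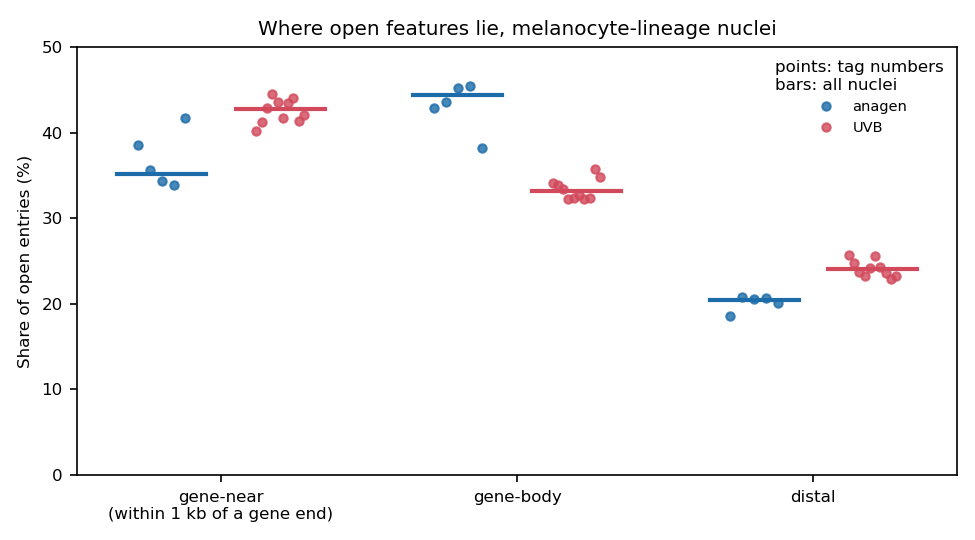
Share of open entries (%) in gene-near, gene-body and distal features of melanocyte-lineage nuclei. Points are tag numbers with at least 30 members (5 anagen, 10 UVB) and bars are all members of a condition. The gene-body points do not overlap, with anagen at 38.2% to 45.4% and UVB at 32.2% to 35.8%.

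Single features were compared when they had at least 20 open entries over both conditions and lay outside the marker windows, which left 16927 gene-near, 21416 gene-body and 10579 distal features. At least 2-fold higher levels in UVB were seen for 1333 gene-near features (7.87%) and 2-fold lower levels for 1886 (11.1%). Inside genes, 2149 features were higher (10%) and 9134 were lower (42.7%). Distal features went the other way, with 2833 higher (26.8%) and 2079 lower (19.7%), though not in every setting below. The median ratio of UVB to anagen was 1.11 gene-near, 0.610 inside genes and 1.14 at distal features. In the other nuclei, the features 2-fold lower inside genes had a summed ratio of 0.744, against 0.241 in members, and the distal features 2-fold higher had 1.602 against 3.38. Both member ratios were fixed by the choice of these features, so the comparison is a description. Telogen members were not used in that choice, but the anagen and UVB levels set beside them were. They had 28648 EPM at the lower features inside genes, where anagen had 115308 and UVB 27773. At the higher distal features they had 50909 EPM, where anagen had 20260 and UVB 68450. Telogen levels lay nearer to UVB than to anagen at both sets. Since the sets were chosen by the anagen and UVB levels, this too is a description and no check.

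How many features were lower in UVB depended on depth and on 1 tag number. Without anagen tag number 5, the lower features numbered 863 gene-near (6.22% of those compared), 3112 inside genes (25.3%) and 841 distal (11.4%). Higher features then made up 8.55%, 15.8% and 33.7%. Without nuclei deeper than 3 times their condition's median, they numbered 292 (2.75%), 765 (11.2%) and 271 (5.75%), and higher features then made up 12.9%, 22.6% and 36.8%. With equal numbers of nuclei thinned to 500 open features, a setting chosen after the data were seen, higher and lower features made up 21.4% and 7.17% gene-near, 24.0% and 20.7% inside genes, and 38.9% and 11.2% distal. In these last 2 settings higher features outnumbered lower ones inside genes and near gene ends, the reverse of the order over all entries. With each nucleus thinned to 500 open features they did so too (29.4% and 5.14% inside genes, 19.4% and 1.17% gene-near). The gene-near order alone also reversed without anagen tag number 5 and in stricter members (17.4% and 3.63%). With a minimum of 40 entries it reversed too (8.32% and 4.01%). It did not with deposited counts, a minimum of 10, all deposited barcodes, or housekeeping or gene-near scaling. Scaled to the ends of housekeeping genes, higher features made up 14.2% of the gene-near features past 2-fold in place of 41.4%. At distal features they made up 43.0% in place of 57.7%. The distal order thus reversed, with 19.9% of distal features compared higher and 26.4% lower. It reversed too with gene-near scaling (21.4% and 24.7%), all deposited barcodes (23.9% and 24.7%) and medians over tag numbers (27.2% and 32.7%). With deposited counts it was near even (26.0% and 25.6%).

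A stricter reading asks that the 95% interval lie wholly beyond 2-fold. That left 162 gene-near features higher (0.957%) and 229 lower (1.35%), 677 higher (3.16%) and 3089 lower (14.4%) inside genes, and 1065 higher (10.1%) and 469 lower (4.43%) at distal features. All UVB tag numbers lay above all anagen tag numbers at 125 gene-near (0.738%), 183 gene-body (0.855%) and 228 distal features (2.16%). All lay below at 92 (0.544%), 887 (4.14%) and 142 (1.34%).

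Distal features higher in UVB lay farther from genes. Their median distance to the nearest protein-coding gene was 47.8 kb, against 13.6 kb for those lower in UVB and 21.6 kb for all distal features compared. Beyond 100 kb lay 31.9% of the higher features, 15.0% of the lower ones and 20.0% of all.

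Gene-near features far above anagen lay at Sec16b, Emb, Trappc3l, P2ry1 and Pld1. The feature at Sec16b, a gene for an endoplasmic reticulum export protein (chr1:157507153-157507653), was open in 4 anagen members and 70 UVB members, at 1.76 and 37.5 EPM. The ratio was 21.3 (interval 7.98 to 80.5). Over tag numbers its level ran from 0 to 2.51 in anagen and from 0 to 101 in UVB, with medians of 0 and 33.2, so that at least 1 UVB tag number had no open entry. P2ry1, a receptor for extracellular ADP, was open in 3 and 34 members at chr3:61002819-61003319. Pld1, a phospholipase D, was open in 11 and 73 members at chr3:27939181-27939681. Emb, which encodes the adhesion protein embigin, and Trappc3l had 1 open entry in anagen and 24 in UVB each (29.3, interval 4.77 to 1204). All 5 ranges over tag numbers overlapped. In the other nuclei UVB exceeded anagen at these 5 features as well, by ratios from 1.22 to 2.77.

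The gene-near features most below anagen included 3 at the cardiac myosin heavy chain genes Myh7 and Myh6, described with those genes below. Outside that locus, a feature at Rab40c, a Rab-like member of a ubiquitin ligase (chr17:25881654-25882154), was open in 49 anagen members and no UVB member. Against a floor of 3 entries over the UVB members it was 13.4-fold lower, and the interval of its ratio reached up to 0.0954. Its anagen tag numbers ran from 12.5 to 33.0 EPM with a median of 22.6. A feature near Chmp4b, a subunit of the membrane-cutting ESCRT-III complex (chr2:154695695-154696195), was open in 41 members and none. It was 11.2-fold lower against that floor (ratio interval up to 0.115). A feature at Alas1, the first enzyme of haem synthesis (chr9:106233961-106234461), was open in 47 and 1. At Rab40c, Chmp4b and Alas1 the tag numbers of the conditions did not overlap. The other nuclei had at most 12 open entries at each of these in a condition.

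Distal features most above anagen lay up to 1485 kb from the nearest gene. A feature 621 kb from Vstm2b (chr7:40276026-40276526) was open in 4 anagen and 93 UVB members, at 1.76 and 49.8 EPM (ratio 28.4, 10.7 to 106). Every UVB tag number, from 16.9 to 80.5, lay above every anagen tag number, from 0 to 3.14. A feature 179 kb from Slc16a7 (chr10:125040011-125040511) was open in 3 and 91 members, again without overlap. A feature 6.41 kb from Wdr70 (chr15:7866149-7866649) was open in 1 and 53. Its tag numbers barely stood apart, at 0 to 3.14 EPM in anagen and 3.38 to 100 in UVB. A feature 462 kb from Myc, the growth-promoting transcription factor (chr15:61522991-61523491), was also open in 1 and 53, with 0 in UVB tag number 16. No anagen member was open at the feature 157 kb from Sox6 (chr7:115313016-115313516, 39 UVB members) or at the feature 1485 kb from Slc10a2 (43 UVB members). Against a floor of 3 entries over the anagen members these were 15.9-fold and 17.5-fold higher, with lower interval ends of 12.3 and 13.6. In the other nuclei the 6 features were also higher in UVB, by ratios from 2.65 to 6.14.

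Of the distal features most below anagen, those nearest Hk2, Klf14, En1 and Aacs were open in 47, 45, 39 and 36 anagen members and in no UVB member. The feature 8.34 kb from Hk2, which encodes hexokinase 2, lay at chr6:82716189-82716689, and its anagen tag numbers ran from 0 to 28.3 EPM. It was 12.8-fold lower against the floor of 3 UVB entries (ratio interval up to 0.0996). The feature 127 kb from Klf14 lay at chr6:31085934-31086434, 12.3-fold lower against this floor (up to 0.104). The feature 235 kb from En1 lay at chr1:120842498-120842998, 10.7-fold lower against it (up to 0.121). The Klf14 and En1 features did not overlap between the conditions' tag numbers. The feature 8.26 kb from Smchd1, a gene that acts in X inactivation (chr17:71483626-71484126), was the most often open of the 6, in 82 anagen members (12.0%) and 3 UVB members (0.258%).

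**Figure D2:**
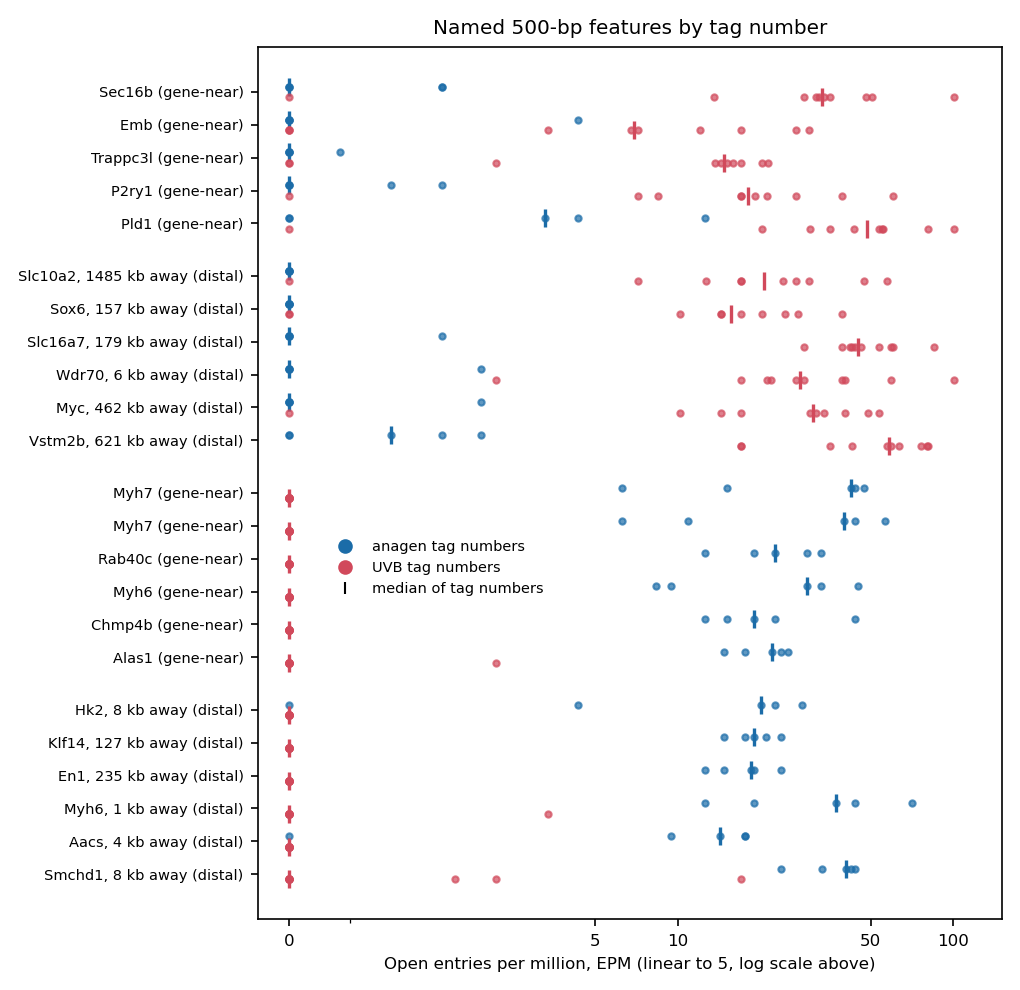
Levels (EPM) at the 23 named gene-near and distal features, by tag number (linear to 5, log scale above). Points are tag numbers and ticks their medians. UVB points lie at 0 at the Rab40c, Chmp4b, Klf14 and En1 features, and every anagen point there lies above 10.

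Inside genes, 2 neighbouring features of Macrod2, which encodes an ADP-ribose hydrolase, were both higher in UVB in every tag number. The stronger in open entries (chr2:141817802-141818302) was open in 11 anagen members (1.603%) and 165 UVB members (14.2%). A feature of Ep400, the motor of a chromatin remodelling complex (chr5:110692259-110692759), was open in 71 anagen members and no UVB member. It was 19.4-fold lower against the floor of 3 UVB entries (ratio interval up to 0.0650). A feature of Eif2ak3, the endoplasmic reticulum stress kinase PERK (chr6:70895901-70896401), was open in 62 and none. These gene-body examples were chosen after their values were seen.

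Summed over gene bodies plus 2 kb, 9893 genes outside the marker list had at least 100 open entries. Of these, 501 were at least 2-fold higher in UVB (5.06%) and 674 at least 2-fold lower (6.81%), and the interval lay wholly beyond 2-fold for 199 (2.01%) and 254 (2.57%). Tag numbers did not overlap for 215 higher (2.17%) and 378 lower genes (3.82%). Scaled to housekeeping gene ends, the numbers were 225 and 1453, and scaled to gene-near features 251 and 1277. Those scalings put the median log2 ratio of all genes at -0.28 and -0.23, against 0.05 here. Counted over gene ends alone, 290 genes were higher and 91 lower, around a median of 0.29.

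Opn5, an opsin that responds to violet and ultraviolet light, had the largest ratio among the genes higher in UVB (chr17:42556779-42611430). Its window held 11 open entries in anagen and 103 in UVB, at 4.83 and 55.2 EPM, a ratio of 11.4 (6.12 to 23.6). Anagen tag numbers 1, 3, 4, 5 and 8 stood at 4.72, 2.50, 9.42, 5.02 and 0, and UVB tag numbers ran from 28.6 to 99.98 with a median of 40.4. Every UVB tag number was thus above every anagen one. Both of its features that could be compared were higher. The ratio in the other nuclei was 2.13, and telogen members had no open entry there.

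Gucy1a1, a subunit of the nitric oxide receptor guanylate cyclase, had 16.3 and 110 EPM (ratio 6.76, 4.74 to 9.87), with tag numbers from 4.72 to 29.3 and from 74.3 to 158. Most of that came from 1 feature 34.9 kb into the gene (chr3:82110470-82110970), open in 11 and 136 members. Slc2a9, a urate transporter, had 29.9 and 185 EPM (6.21, 4.77 to 8.17), and all 5 of its features compared were higher. Ldb2, a LIM-domain cofactor, had 75.1 and 388 EPM (5.16, 4.37 to 6.14), with all 12 features compared higher and tag numbers from 60.2 to 147 and from 270 to 600.1. Frmpd4, a synaptic scaffold gene on the X chromosome, had 16.7 and 138 EPM (8.25, 5.85 to 11.9). For Gucy1a1, Slc2a9, Ldb2 and Frmpd4 the tag numbers of the conditions did not overlap. Telogen members had 22.2 EPM at Gucy1a1 (2 open entries), 99.97 at Slc2a9 (9), 399.9 at Ldb2 (36) and 33.3 at Frmpd4 (3). At Ldb2 the telogen level was thus near that of UVB.

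Acot11, an acyl-CoA thioesterase, had 25.5 and 147 EPM (5.76, 4.33 to 7.79). Tprg and P3h2, a collagen prolyl hydroxylase, are neighbours of the keratinocyte gene Trp63 on chromosome 16. Tprg had 6.59 and 60.02 EPM (9.11, 5.29 to 16.8) and P3h2 had 44.4 and 252 (5.69, 4.58 to 7.12), and both overlapped over tag numbers. Telogen members had 167 EPM at Acot11 (15 open entries), 44.4 at Tprg (4) and 222 at P3h2 (20). At Acot11 and P3h2 this was nearer to UVB than to anagen, and the 4 entries at Tprg are too few to place it. Trp63 itself, a keratinocyte marker, stood at 11.9 and 64.3 EPM in members and at 68.1 and 113 in other nuclei. Of the 12 keratinocyte markers, 9 were higher in UVB members, among them Itgb4 (46.1 and 91.6) and Lgals7 (25.5 and 37.0). Some of the 9 hardly moved, such as Sfn (40.0 and 40.2). Krt5 (5.71 and 2.14), Krt1 (1.76 and 0.536) and Col17a1 (21.1 and 16.1) were lower. In other nuclei Itgb4 stood at 66.7 and 60.9. The part of keratinocyte nuclei in these ratios was not tested.

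Among the genes lowest in UVB, Myh7 and Myh6, the cardiac myosin heavy chains, came first (chr14:54970684-54994626 and chr14:54941921-54968017). Myh6 had 374 open entries in anagen members and 10 in UVB members, at 164 and 5.36 EPM (ratio 0.0326, 0.0155 to 0.0607). Its anagen tag numbers ran from 69.1 to 387 and its UVB tag numbers from 0 to 13.6. Myh7 had 91.4 and 1.07 EPM (0.0117), and 73.3% of its entries lay in features shared with Myh6. The difference was as large outside the lineage: the other nuclei had 569 EPM in anagen and 8.98 in UVB at Myh6. Telogen members, in the library of the anagen ones, had 211.

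Oca2 and Slc24a4 were the pigment-related genes among the lowest. Oca2 encodes the melanosome anion channel that is lost in oculocutaneous albinism type 2 (chr7:56239593-56536518). It had 990 open entries in anagen members and 106 in UVB members, at 435 and 56.8 EPM, a ratio of 0.131 (0.106 to 0.160). Anagen tag numbers 1, 3, 4, 5 and 8 stood at 330, 483, 393, 473 and 235. UVB tag numbers ran from 23.7 to 107 with a median of 53.2, so every UVB value was below every anagen value. Of 15 Oca2 features compared, 14 were at least 2-fold lower, and the farthest of them lay 280 kb from the start. The other nuclei had 66.2 and 51.1 EPM, a ratio of 0.772, and telogen members had no open entry.

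Slc24a4, a potassium-dependent sodium/calcium exchanger, had 362 and 46.1 EPM (0.127, 0.101 to 0.159), with all 9 features compared lower. Its anagen tag numbers 1, 3, 4 and 5 lay between 241 and 513 and tag number 8 at 73.3, inside the UVB range of 0 to 119. Rnf144b, a ubiquitin ligase gene (113 and 14.5 EPM), Arfgef2, an exchange factor for ARF GTPases (69.0 and 8.04), Helz, an RNA helicase gene (74.7 and 9.11), Rnpep, an aminopeptidase gene (98.0 and 13.4), and Tmem269 (47.9 and 3.22) were lower without overlap of tag numbers. Lama1, the laminin α1 chain, had 110 and 16.1, with overlap.

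**Figure D3:**
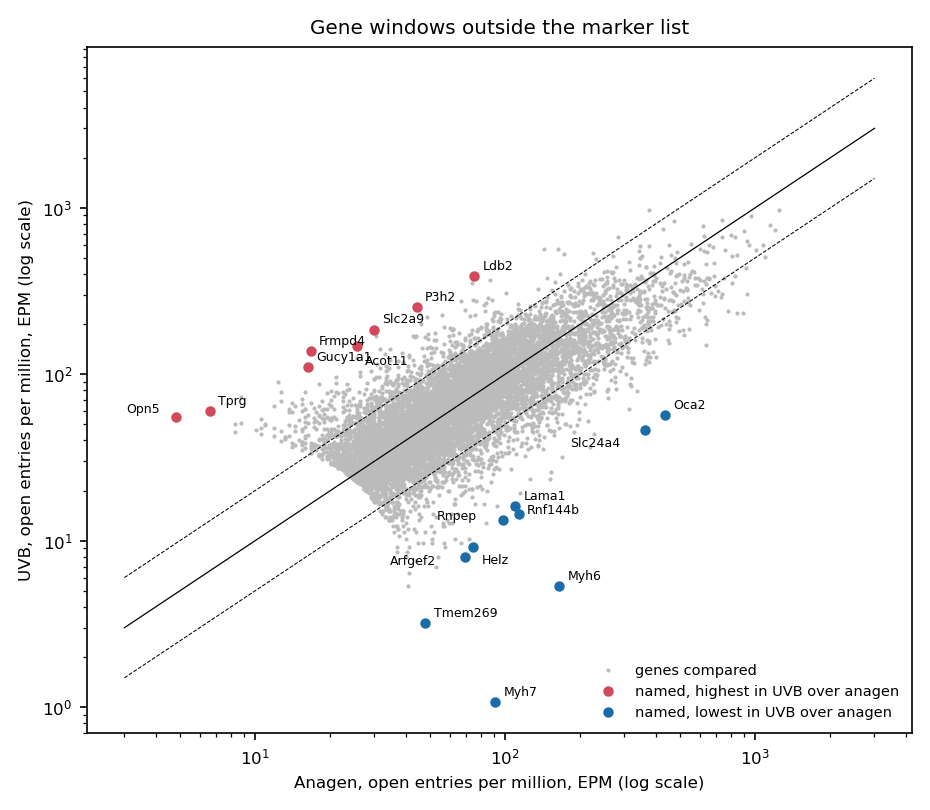
UVB against anagen levels (EPM, both log scale) for 9893 gene windows, with 8 of the highest and the 10 lowest genes named. The solid line marks equal levels and the dashed lines 2-fold. Oca2 stands at 435 and 56.8, and Opn5 at 4.83 and 55.2.

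Pigment and melanosome genes outside the marker list were lower in UVB on balance. Of 28 listed genes 27 could be compared: none was 2-fold higher and 6 were 2-fold lower (22.2%, against 6.81% of all genes), with a median log2 ratio of -0.28 against 0.05. The 6 were Oca2, Slc24a4, Trpm1, the melanosome exchanger Slc24a5 (ratio 0.438), and Hps3 and Hps4 (0.496 and 0.489), which act in the sorting of melanosome proteins. Over gene ends alone the list median was -0.023, against 0.29 for all genes.

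Trpm1, a cation channel gene that is a target of Mitf and carries miR-211 (chr7:64153835-64269772), had 847 and 235 EPM, a ratio of 0.277 (0.249 to 0.307). Its anagen tag numbers ran from 440 to 892 and its UVB ones from 157 to 389, without overlap. At least 2-fold lower levels were seen at 41 of 48 features compared, and 5 were open in no UVB member. The feature open most often, 31.7 kb from the start (chr7:64185264-64185764), was open in 160 anagen and 67 UVB members (0.511, 0.378 to 0.683). Pmel, which builds the melanosome fibrils, had 395 and 396 EPM (1.00, 0.907 to 1.11), but 93.8% of its entries lay in features shared with Cdk2, Dgka or Rab5b. Tpcn2, a melanosome channel that modulates pigment, was the highest of the list (1.50, 1.21 to 1.87).

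Dct, the melanin enzyme whose promoter drives the GFP label, divided by region. Over its window (chr14:118012790-118052246 plus 2 kb) it had 737 and 667 EPM (ratio 0.906, 0.841 to 0.975). The feature at its start (chr14:118052265-118052765) was open in 465 anagen and 752 UVB members, with a ratio of 1.97 (1.75 to 2.22). Its tag numbers overlapped, at 181 to 440 EPM in anagen and 338 to 543 in UVB. Telogen members had 433 EPM there, and the ratio in the other nuclei was 2.58 (2.24 to 2.97). The other 48 features together had 532 and 264 EPM, a ratio of 0.496 (0.446 to 0.551), and 26 of 35 features compared were at least 2-fold lower. At those 48, telogen members had 233 EPM, and the ratio in the other nuclei was 0.916 (0.805 to 1.04). Reads from the Dct promoter of the transgene cannot be told apart from those of the gene itself at the start.

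**Figure D4:**
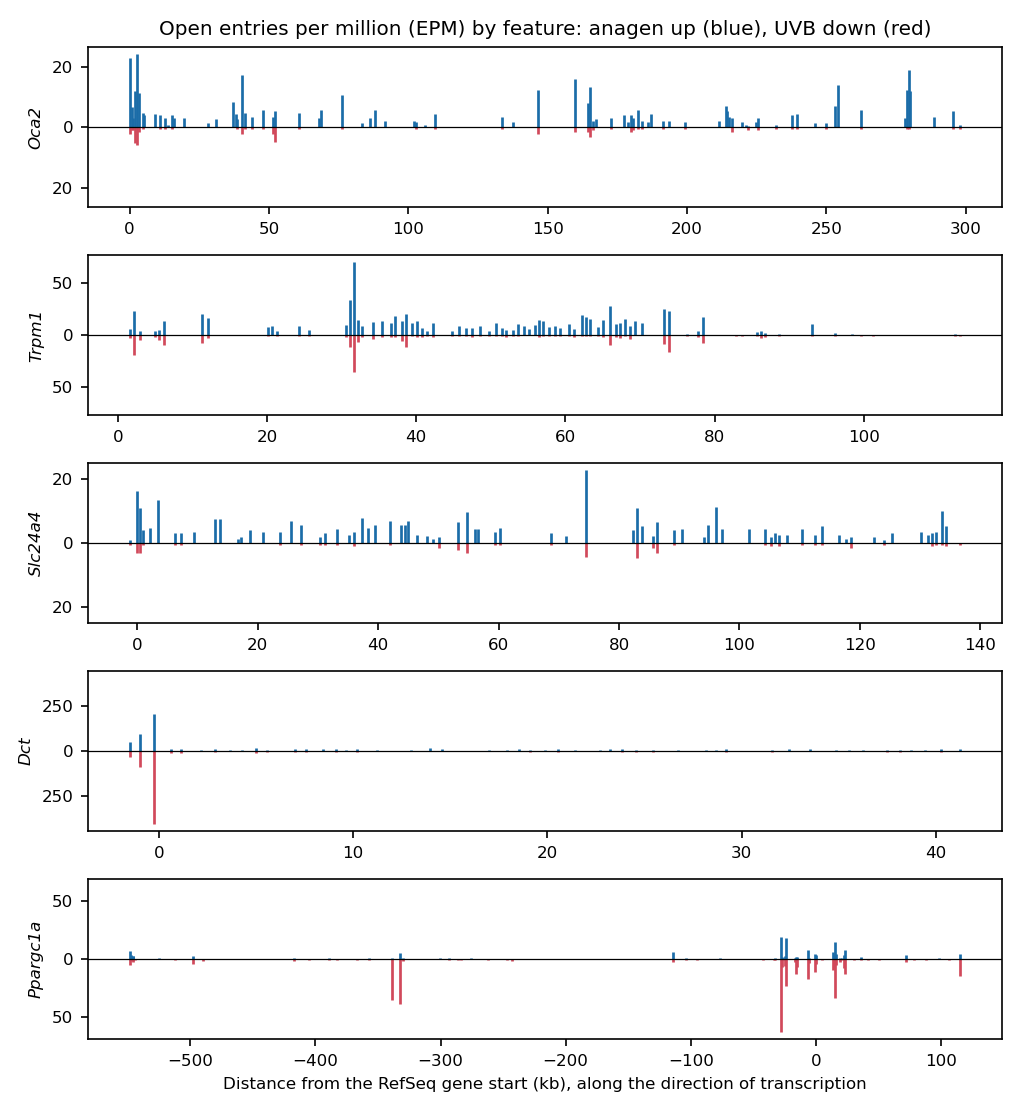
Levels (EPM) at each feature of Oca2, Trpm1, Slc24a4, Dct and Ppargc1a, by distance from the RefSeq start in kb along the direction of transcription, anagen upward and UVB downward. Trpm1 features are taller in anagen along the gene, while the start of Dct is taller in UVB (403 against 204 EPM).

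Promoter sequence shows what lies at such starts. The 250 bases before a RefSeq transcript start (GRCm38.p6) are given for 4 genes, picked after the motif search. Their start feature differed among the most and their promoter holds one of the searched motifs. Oca2 (chr7:56239509-56239758, plus strand) and Chn2, a Rac-regulating protein gene (chr6:54272572-54272821, plus strand), were lower in UVB. Their start features were open in 52 and 51 anagen members and in 4 and 3 UVB members (ratios 0.0938 and 0.0717). Capitals mark the M-box CATGTG and the SOX motif ACAAAG or their reverse complements. The Oca2 stretch runs past the first base of the gene as placed above (56239593), and its SOX match lies inside the gene. Mme, the peptidase neprilysin (chr3:63295845-63296094, plus strand), and Adgrg1, an adhesion receptor (chr8:94984149-94984398, plus strand), were higher in UVB. Their start features were open in 4 and 11 anagen members and in 37 and 68 UVB members (ratios 11.3 and 7.54). There, capitals mark the AP-1 motif TGANTCA. These examples do not tie a motif to a direction. AP-1 also stood in promoters lower in UVB, those of Dclk1 and Abr. SOX stood in higher ones too, such as Socs3 and Cldn1, and the M-box in that of Cd9.
Oca2: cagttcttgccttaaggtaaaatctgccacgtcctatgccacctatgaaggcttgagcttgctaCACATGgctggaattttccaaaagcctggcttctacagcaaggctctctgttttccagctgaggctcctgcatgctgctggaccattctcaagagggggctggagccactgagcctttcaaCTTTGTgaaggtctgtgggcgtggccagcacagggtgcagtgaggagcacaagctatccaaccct
Chn2: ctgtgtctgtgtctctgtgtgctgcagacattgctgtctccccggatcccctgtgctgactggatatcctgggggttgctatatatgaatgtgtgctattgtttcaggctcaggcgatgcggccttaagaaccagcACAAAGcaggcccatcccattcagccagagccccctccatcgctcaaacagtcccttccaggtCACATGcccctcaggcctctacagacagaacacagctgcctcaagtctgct
Mme: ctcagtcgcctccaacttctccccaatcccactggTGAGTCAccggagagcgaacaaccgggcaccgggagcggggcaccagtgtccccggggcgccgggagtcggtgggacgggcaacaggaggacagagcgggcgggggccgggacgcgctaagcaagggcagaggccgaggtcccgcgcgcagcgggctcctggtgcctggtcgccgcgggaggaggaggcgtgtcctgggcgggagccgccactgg
Adgrg1: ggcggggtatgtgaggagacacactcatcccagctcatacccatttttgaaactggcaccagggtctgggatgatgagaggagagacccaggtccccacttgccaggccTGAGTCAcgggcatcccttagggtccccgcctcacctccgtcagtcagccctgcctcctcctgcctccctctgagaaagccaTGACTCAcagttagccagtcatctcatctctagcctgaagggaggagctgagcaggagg

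Over all promoters whose start overlapped a compared feature, both strands searched, the M-box stood in 9.22% of 412 promoters lower in UVB, 4.60% of 913 higher ones, 6.02% of all 10051 compared and 10.1% of all 21020 promoters. The SOX motif stood in 14.8%, 11.0%, 10.6% and 15.0%, and AP-1 in 4.85%, 4.60%, 3.51% and 6.18%. The SP motif GGGCGG stood in 42.7%, 69.8%, 65.2% and 43.0%. The share of G and C bases moved with these, at 56.8%, 63.6%, 61.6% and 55.6%, and its part was not tested.

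Lineage regulators outside the markers had 19 of 22 genes compared, none 2-fold higher and 4 lower (21.1%, against 6.81% of all genes), with a median log2 ratio of -0.16. The lower ones were Met, the receptor for hepatocyte growth factor (454 and 153 EPM, 0.338, 0.295 to 0.385), the Wnt effector Lef1 (155 and 59.5, 0.384), Sox5 (0.461) and Zeb1 (0.493). Met did not overlap over tag numbers (337 to 501 and 60.4 to 241), but over gene ends alone its log2 ratio was -0.28. That of Lef1 was -0.86 without the deep nuclei and -0.99 over gene ends. Its start feature was open in 50 and 34 members (0.829, 0.520 to 1.31), while a feature 81.7 kb inside the gene was open in 62 and 3 (0.0590, 0.0118 to 0.181). Erbb3, a neuregulin receptor of the neural crest that is also a Schwann cell marker, was the highest of the list, at 179 and 343 EPM (1.92, 1.69 to 2.18). In other nuclei its ratio was 1.79, and 38.4% of its entries lay in features shared with Pa2g4.

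Immediate early and AP-1 genes, which respond within minutes to growth factors and stress, were mostly higher in UVB. All but 1 of 24 listed genes were compared: 5 were 2-fold higher (21.7%, against 5.06% of all genes) and none lower, with a median log2 ratio of 0.73. The 5 were Atf3 (90.1 and 234 EPM, 2.60, 2.20 to 3.08), Jund (159 and 360, 2.27, 1.99 to 2.58), Klf2 (2.29), Nr4a2 (2.19) and Fos (2.03). Atf3 ranged over tag numbers from 79.4 to 132 in anagen and from 101.6 to 362 in UVB, with overlap, and stood at 389 in telogen members. Without the deep nuclei its log2 ratio was 0.97. Dusp1, a phosphatase that shuts off MAP kinases, was the lowest (0.868, 0.745 to 1.01), and Fosl2 had a ratio of 1.07 (0.917 to 1.26). With housekeeping scaling the list median was 0.40 and that of Jund 0.85. Among the other nuclei the ratios were 1.22 for Atf3 and 0.892 for Jund.

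Interferon and antigen presentation genes had 18 of 25 compared, of which 5 were 2-fold higher (27.8%, against 5.06% of all genes) and none lower, with a median of 0.73. Among them were Gbp2 (2.96), Ifit2 (2.89, 2.09 to 4.05), H2-K1 (2.71) and Irf1 (2.61). Ifit2, an interferon-induced inhibitor of viral translation, had 23.7 and 68.6 EPM, with tag numbers from 12.6 to 37.8 and from 40.5 to 107 and no overlap. Gbp2, a guanylate-binding protein, took 99.2% of its entries from features shared with its near copy Gbp2b. These genes had few entries, and after thinning only 1 of them reached 100 entries (log2 ratio -0.29). With a minimum of 20 entries, chosen after this was seen, the median was 0.86. Irf2 was the lowest of the list (0.699, 0.584 to 0.833). In stricter members the list median was 0.24. Summed myeloid markers were 131 and 104 EPM in anagen and UVB members, keratinocyte markers 179 and 291, and Schwann markers 571 and 891. Their part was not tested.

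The list for NF-κB and inflammation had a median of 0.33, with 1 of 11 genes compared 2-fold higher (9.09%) and none lower. MAPK feedback had a median of 0.09, with 1 of 12 higher (8.33%) and none lower. Of all genes, 5.06% were higher and 6.81% lower, so these are single genes near that share. Socs3, which limits cytokine signalling through STAT3, had 50.1 and 145 EPM (2.90, 2.32 to 3.64), and all 4 of its features compared were higher. Without the deep nuclei its log2 ratio was 0.96, and its ratio in the other nuclei was 0.866. Dusp6, which inactivates ERK, had 154 and 319 EPM (2.07, 1.81 to 2.37). Its tag numbers did not overlap (142 to 217 and 220 to 403), but its log2 ratio was below 2-fold in 6 alternatives. It was 0.72 with housekeeping scaling and over gene ends, 0.77 with gene-near scaling, 0.84 without the deep nuclei, 0.89 with equal thinned nuclei and 0.94 without anagen tag number 5. Dusp4 and Spry4, other ERK inhibitors, were lower (0.680, 0.600 to 0.769, and 0.537, 0.399 to 0.716), and 80.3% of Spry4 entries were shared with Arhgap26.

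Lists tied to the direct answer to UVB damage had medians between 0.04 and 0.12, beside 0.05 for all genes. With housekeeping scaling the p53 and nucleotide excision repair medians were -0.29 and -0.22, beside -0.28. The p53 list had a median of 0.04, with no gene of 17 compared 2-fold higher and Zmat3 lower (0.493). That was 5.88% lower, against 6.81% of all genes. Zmat3, an RNA-binding p53 target, had a log2 ratio of -1.02, which was -0.41 after thinning, -0.14 with equal numbers of thinned nuclei and -0.40 over gene ends. It was -0.89 without anagen tag number 5 and -0.88, -0.92 and -0.99 without UVB tag numbers 18, 19 and 21. Cdkn1a, the cell cycle inhibitor induced by p53, had 83.5 and 113 EPM (1.35, 1.11 to 1.66), with overlapping tag numbers. The 13 nucleotide excision repair genes compared, which remove UV photoproducts, had a median of 0.12 and none past 2-fold, and Rad23b, a damage recognition factor, was the highest (1.59, 1.31 to 1.93). The NRF2 list had a median of 0.10 and none of 13 past 2-fold. Cell cycle genes had a median of 0.45, with 1 of 16 higher (6.25%, against 5.06% of all genes) and none lower. The higher gene was the replication helicase subunit Mcm6 (2.16, 1.52 to 3.09), with log2 ratios from 0.77 to 0.97 in 6 alternatives. E2f7 stood just below 2-fold (1.98, 1.61 to 2.44). Housekeeping genes had a median of 0.26 with none of 14 past 2-fold.

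Wnt and cAMP genes went both ways. Among 17 Wnt genes compared (median -0.17), the TCF factor Tcf7l2 was higher (84.4 and 177 EPM, 2.10, 1.75 to 2.52) and Lef1, Tcf7 (0.393) and Znrf3 (0.349, 0.294 to 0.413) were lower. Of the Wnt genes 5.88% were thus higher and 17.6% lower, against 5.06% and 6.81% of all genes. Tag numbers did not overlap for Tcf7l2 or Znrf3. Tcf7l2 had log2 ratios of 0.73 to 0.87 after thinning, with both other scalings, in stricter members and without the deep nuclei, and 0.99 without anagen tag number 3. Over gene ends alone the Wnt median was 0.12. Over gene ends alone Znrf3, which removes Wnt receptors from the cell surface, had a log2 ratio of 0.13. Among 21 cAMP and MC1R genes compared (median -0.32), Ppargc1a was higher and the phosphodiesterase Pde8a (0.365, 0.299 to 0.443), Mgrn1 (0.468), a ubiquitin ligase of the mahoganoid coat colour locus, and Adcy9 (0.499) were lower. Of these genes 4.76% were thus higher and 14.3% lower, against 5.06% and 6.81% of all genes. Over gene ends alone the list median was 0.24, beside 0.29 for all genes, and Pde8a and Mgrn1 had log2 ratios of -0.12 and -0.33.

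Ppargc1a, the PGC-1α coactivator that acts downstream of Mc1r in melanocytes, had 147 and 377 EPM (2.56, 2.24 to 2.92). Its tag numbers ran from 123 to 160 in anagen and from 271 to 472 in UVB, without overlap, and 10 of its 14 features compared were at least 2-fold higher. The feature at chr5:51906655-51907155, upstream of the RefSeq start used here by 339 kb but inside the annotated gene, was open in 1 anagen and 67 UVB members (81.7, 14.2 to 3275). At gene ends alone the log2 ratio was -0.47. The gene's ratio in the other nuclei was 2.02.

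Migration, adhesion and matrix genes had a median of -0.01, with 1 of 17 compared higher (5.88%, against 5.06% of all genes) and 3 lower (17.6%, against 6.81%). Itga2, a collagen-binding integrin subunit, was higher (48.8 and 113 EPM, 2.31, 1.82 to 2.93), with overlap over tag numbers. The log2 ratio of Itga2 was 0.56 in stricter members, 0.64 with equal thinned nuclei, and 0.87 and 0.92 with housekeeping and gene-near scaling, all below 2-fold. Cdh3, P-cadherin, had 143 and 67.0 (0.468, 0.377 to 0.577), with log2 ratios of -0.44 over gene ends and -0.71 in stricter members. The other lower genes were Met and the integrin subunit Itgb3 (0.482).

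**Figure D5:**
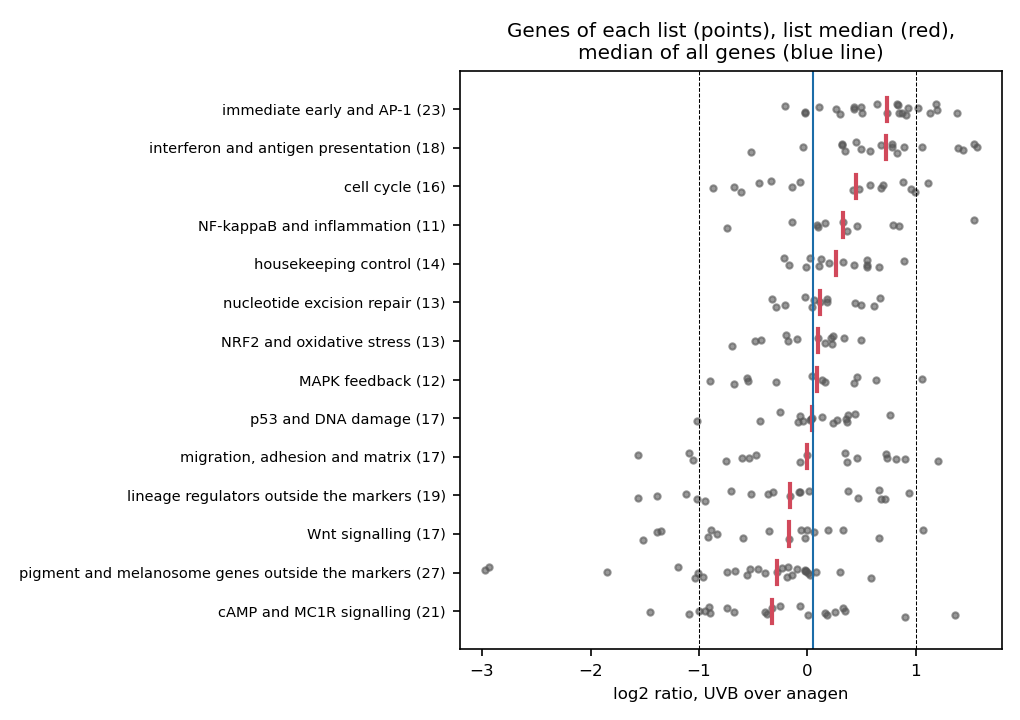
log2 ratio of UVB over anagen for the genes of 14 lists, with the number compared in brackets, list medians in red and the median of all genes (0.05) as a blue line. Dashed lines mark 2-fold. The immediate early and the interferon lists have the highest medians (both 0.73) and the cAMP and MC1R list the lowest (-0.32).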

How the data were processed

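Single-nucleus ATAC-seq was deposited by the authors as 1 count matrix per condition, with nuclei as columns and 315694 features of 500 bp on mm10 as rows. The submitters' processing notes name Bowtie2, SAMtools and MACS2 with mm10 and GRCm38, without versions. How fragments were counted, shifted and filtered, and whether doublets were removed, was not given in the sources used here. Doublets were not called. Feature coordinates are as deposited, and their first base was not checked. Of the deposited counts, 61.1% of non-zero values were 2, so a feature was scored open in a nucleus at any count above 0. Each barcode after the # sign was used once per condition (deeper copy), which removed 1721 of 5474 anagen, 62 of 6615 UVB and 543 of 2585 telogen barcodes.

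Levels (EPM) are open entries per 1000000 within a group, with exact conditional binomial 95% intervals for ratios and Clopper-Pearson intervals for shares. Intervals and the floor of 3 entries over a condition cover counting error only. The floor is a set value, and folds against it exceed what the interval end nearer to 1 gives. Gene models and the 250-base promoters came from RefSeq (GRCm38.p6), in which 18019 protein-coding genes of 21900 held at least 1 feature. Of 374 listed genes, 373 matched. The members and lists were chosen with earlier results of these data known. Named features were the 6 highest and 6 lowest gene-near and distal ones, and named genes the 10 highest and 10 lowest, by the interval end nearer to 1, some of which are not reported here. Up to 4 genes a list were named by the same measure, with Dct, Oca2 and Trpm1 in every case. Other genes of a list past 2-fold, Krt5, Krt1, Col17a1, Sfn, Itgb4, Lgals7, Trp63, Jund and the gene-body features were named after their values were seen. So were Dclk1, Abr, Cldn1 and Cd9 among the promoters. Motifs were searched in promoters alone, since no genome was used here. Scripts ran in Python 3.11.15 with numpy 2.4.6, pandas 2.3.3, scipy 1.17.1 and matplotlib 3.10.9, and were tested on simulated data. Alternatives covered the unit, the minimum, depth, scaling, members, barcodes, tag numbers and gene windows.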

Additional observations from a re-analysis of the deposited data

How the results depend on the processing

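No paired analysis was possible because each condition is 1 sample. UVB technical replicates could not be left out, since nuclei carry no map to them. Among alternative values for shares, counts and list medians, 596 stayed within 1.5 times the count or within the interval, and the rest moved by more or changed sign. Anagen members were deeper, and the number of features lower in UVB moved with depth, the minimum, the member rule and anagen tag number 5. The cause of the moves below was not tested. The direction of the class shares was the same under each alternative run: gene-near higher and gene-body lower in UVB.

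With all deposited barcodes, gene-body lower features numbered 14075 and distal lower 3214, and anagen held 34.7% gene-near and 44.7% gene-body. With deposited counts, lower features numbered 3624 gene-near, 18366 gene-body and 4450 distal, and higher ones 3408 gene-body and 4522 distal. The gene-near share was then 36.1% and 43.9% in anagen and UVB, and the gene-body share 43.9% and 32.5%. With minimums of 10 and 30, gene-near lower features numbered 3960, gene-body 3800 higher and 21074 lower, distal 5052 higher and 4974 lower, and genes 821 higher and 1256 lower. With minimums of 40 and 200, they numbered 459, 1150 and 2326, 1412 and 552, and 289 and 444. Thinned to 500 open features, they numbered 71, 760 and 133, 764 and 54, and 136 and 138. The gene-near shares were 36.2% and 43.1% and the gene-body shares 42.7% and 32.6%. Over the 1 gene of each list left, the interferon median was -0.29, against the direction reported, and the nucleotide excision repair median 0.61.

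Alternatives chosen after seeing the data used lower minimums on thinned nuclei. With 20 entries per gene, 861 genes were higher. With equal numbers of thinned nuclei, gene-near lower features numbered 613, gene-body 1218 higher and 1052 lower, distal 1233 higher and 356 lower, and genes 790 higher, and the shares were 36.2% and 43.0% gene-near and 42.7% and 32.7% gene-body. Without nuclei over 3 times the median depth, lower features numbered 292 gene-near, 765 gene-body and 271 distal, distal higher 1733, and genes 302 higher and 221 lower, with 37.3% and 43.5% gene-near and 40.9% and 32.5% gene-body.

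With stricter members (6.31% of anagen and 4.73% of UVB nuclei), gene-near lower features numbered 298, gene-body 952 higher and 1116 lower, distal 954 higher and 321 lower, and genes 217 higher and 422 lower. Medians were 1.01 for immediate early, 0.24 for interferon and 0.61 for housekeeping genes, and shares 34.8% and 43.4% gene-near and 45.2% and 32.8% gene-body. With the pooled share over anagen and UVB only, members made up 16.6% of UVB nuclei. With gene-near set at 2 kb, shares were 40.7% and 47.8% gene-near and 40.4% and 29.4% gene-body. By medians over tag numbers, lower features numbered 4001 gene-near and 3458 distal.

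Scaled by housekeeping gene ends, gene-near features numbered 495 higher and 2996 lower and genes 225 and 1453, with medians of 0.40 (immediate early), -0.29 (p53), -0.22 (nucleotide excision repair) and -0.071 (housekeeping). Scaled by gene-near features, 584 gene-near features were higher, genes numbered 251 and 1277, and medians were -0.24 (p53) and -0.019 (housekeeping). Over gene ends only, genes numbered 290 higher and 91 lower, with medians of -0.023 (pigment), 0.31 (NRF2), 0.12 (Wnt) and 0.24 (cAMP). There Znrf3 had 0.13 and Ppargc1a -0.47, against their directions over the gene. Without UVB tag number 19, UVB held 43.0% gene-near and 33.3% gene-body.

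Leaving out each tag number in turn, lower features ranged from 863 to 2002 gene-near, 3112 to 9132 gene-body and 841 to 2148 distal, each lowest without anagen tag number 5. Gene-near shares ranged from 34.8% to 36.6% in anagen and 42.4% to 43.0% in UVB, and gene-body shares from 43.3% to 44.6% and 32.9% to 33.4%.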

Other observations

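Features past 2-fold were also counted by stretch of the genome. Over all features compared, lower ones made up 11.1% of gene-near, 42.7% of gene-body and 19.7% of distal features. Higher ones made up 7.87%, 10% and 26.8%. In windows of 1 Mb, chosen for the most such features, the window of Trpm1 (chr7:64000001-65000000) had 49 of 74 features compared at least 2-fold lower in UVB and 4 higher. The window of Dct (chr14:118000001-119000000), which also holds Abcc4 and Sox21, had 46 of 83 lower and 3 higher. The window with Smyd3 and Kif26b (chr1:178000001-179000000) had 44 of 62 lower and 1 higher, and that with Rab7 and Mgll (chr6:88000001-89000000) had 45 of 94 lower and 3 higher. Windows with many higher features lay around Vim and St8sia6 (chr2:13000001-14000000, 22 of 37, with 8 lower) and Ahr, the aryl hydrocarbon receptor (chr12:35000001-36000000, 22 of 56, with 7 lower). The window of the major histocompatibility genes H2-K1, Psmb8 and Tap1 (chr17:34000001-35000000) had 24 of 90 higher and 10 lower. Around Socs3 (chr11:117000001-118000000), 24 of 106 were higher and 26 lower. Windows were ranked by these counts, which therefore carry no test.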
